A study of Mus musculus with 12 samples.

Results

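The comparison described here set 3 arrays hybridized from 0.3 ng of a mouse reference RNA against 3 arrays from 3 ng of the same RNA, which are 6 of the 12 arrays of the study. The arrays were chosen by their titles, which give the RNA, the input and a replicate number. Both groups hold universal mouse reference RNA, a commercial mixture that the labels credit to Strategene (their spelling) and that is known as a pool of RNA from mouse cell lines. The 2 groups therefore share source and species and differ in the labelled input, 0.3 or 3 ng of total RNA. Both titles carry the code pRS, which no source used here explains. The study compared ways of amplifying very small amounts of RNA for arrays. Its other arrays are 3 of the same reference RNA at 10 ng, used here to decide which transcripts were present and how bright they were, as the signal axis of the variance model and for their own replicate scatter, and 3 of kidney RNA at 10 ng, not used in the comparison. No age, sex, treatment or genotype applies to a pool of this kind. Nothing in the labels says whether the 3 arrays of a group came from separate amplifications, so each p-value reflects the spread among these arrays alone, and that spread may be technical. The labels give no batch, so a batch that followed the input cannot be told apart from it.

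Expression arrays of this type need micrograms of labelled nucleic acid, far more than a few cells hold, so small samples are copied many times before labelling. Messenger RNA is first reverse transcribed, often from its poly(A) tail, and the resulting molecules are amplified. A transcript with few copies in the tube can fail to be copied at that first step or be copied unevenly between tubes, whereas an abundant transcript is sampled many times. Low input is therefore known for drop-out and for replicate scatter in rare transcripts, and a dilution of a single RNA pool measures both without any biological difference between the tubes.

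Signals are deposited linear intensities, scaled so that the trimmed mean of every array is 500. A background level of 33.7 was set from 27 control probe sets for Bacillus genes (their 95th percentile), which detect bacterial transcripts that mouse RNA does not contain. Of 45037 probe sets for mouse sequences, 28783 had a mean signal above that level in the 10 ng reference and were tested. The median signal over an array was 50.8 ± 2.95 (SD, n = 3) at 0.3 ng and 75.1 ± 4.39 (SD, n = 3) at 3 ng, while the brightest 1% of probe sets held 22.3% ± 0.743 (SD, n = 3) of the total signal at 0.3 ng and 19.2% ± 0.659 (SD, n = 3) at 3 ng. All 3 arrays at 0.3 ng lay below all 3 at 3 ng in the first measure and above them in the second (exact permutation test, two-sided, p = 0.1 for each, the smallest p that 3 against 3 arrays allow). Correlations between replicate arrays over the tested probe sets were 0.826 to 0.861 at 0.3 ng and 0.936 to 0.942 at 3 ng. Replicate 1 at 0.3 ng had the lowest weight when limma estimated 1 weight per array, 0.376 against 0.627 and 0.497 for the other replicates at this input.

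Loss of detection began among transcripts of moderate signal and was deepest in the dimmest. Of 24946 probe sets above background on all 3 arrays at 10 ng, 735 (2.95%) were below it on all 3 arrays at 0.3 ng, and 116 (0.465%) were below it on all 3 at 3 ng. Loss on some of the arrays was more frequent: 13.1% were below background on 1 array at 0.3 ng and 6.78% on 2 arrays, against 5.35% and 1.58% at 3 ng. The percentage below background on a given array was 11.8% ± 1.65 (SD, n = 3) at 0.3 ng and 3.30% ± 0.465 (SD, n = 3) at 3 ng (exact permutation test, two-sided, p = 0.1). The values for replicates 1 to 3 were 13.7%, 11.2% and 10.6% at 0.3 ng and 3.83%, 3.12% and 2.96% at 3 ng, so the groups did not overlap. Probe sets lost on all 3 arrays at 0.3 ng but present on all 3 at 3 ng numbered 381, while the reverse was seen for 4. These probe sets were chosen as present at 10 ng, so the percentages are 0 at 10 ng by definition. Without that condition, 41.2% ± 1.03 (SD, n = 3) of probe sets for mouse sequences lay below background at 0.3 ng. The values were 34.1% ± 1.31 (SD, n = 3) at 3 ng and 35.7% ± 0.528 (SD, n = 3) at 10 ng. On this count 3 ng showed no net loss against 10 ng.

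The signal at 10 ng marked where loss set in. Above a signal of 2896 at 10 ng, 0 of the probe sets present at 10 ng fell below background on any array at 0.3 ng. Between 1024 and 2048 the percentage lost on 1 or more arrays at 0.3 ng was 0.534%. It was 2.50% between 512 and 1024, 8.14% between 256 and 512, 26.1% between 128 and 256, 55.0% between 64 and 128, and 74.7% between the background level and 64. With 3 ng the same percentages stood at 0.0305% between 512 and 1024, 0.277% between 256 and 512, 1.97% between 128 and 256, 15.9% between 64 and 128, and 47.4% between background and 64. Among these probe sets, 10.4% were below background on 1 or more arrays at 3 ng between signals of 91 and 128. A similar 10.6% was reached at 0.3 ng already between 256 and 362. Counted over genes, with 1 probe set per gene, 1926 of 11774 present at 10 ng were below background on 1 or more arrays at 0.3 ng (16.4%) and 645 at 3 ng (5.48%).

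**Figure D1:**
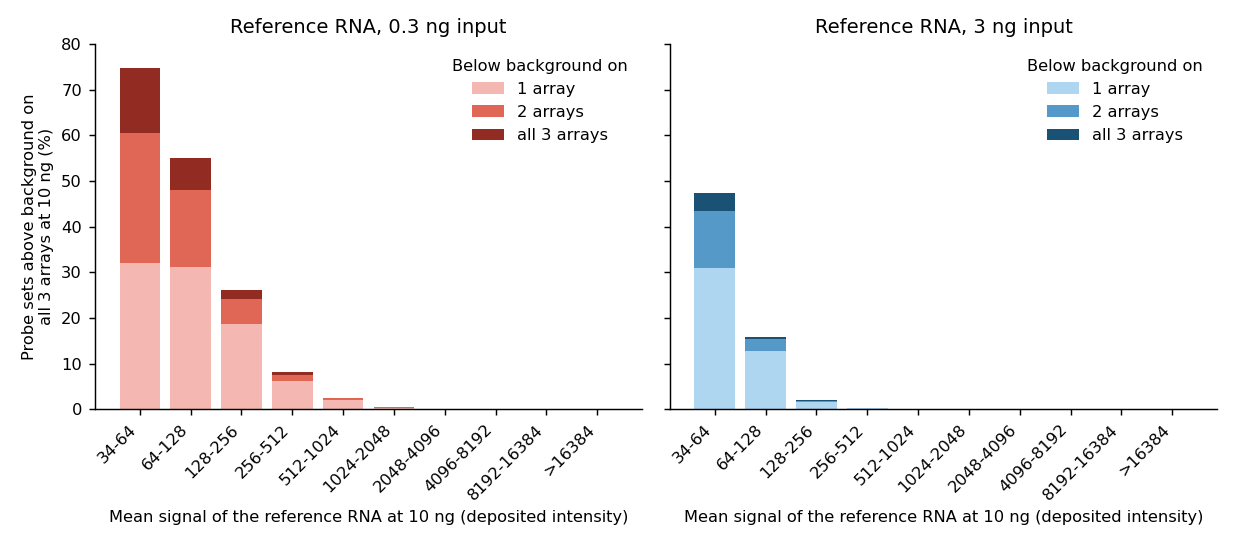
Stacked bars give the percentage of probe sets present on all 3 arrays at 10 ng that lay below the background level on 1, 2 or all 3 arrays at 0.3 ng (left) and 3 ng (right), by mean signal at 10 ng. In the dimmest class 74.7% were below that level on at least 1 array at 0.3 ng and 47.4% at 3 ng. From 512 to 1024 the values were 2.50% and 0.0305%.

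The 10 brightest genes that were absent from all 3 arrays at 0.3 ng and present on all others had 10 ng signals of 320 to 1068, far below the brightest transcripts of the pool. They came from a pool of 126 such genes. Their absence defined them, so the values that follow are a description. Masp1, a serine protease of the lectin pathway of complement, had signals of 7.4, 20.1 and 19.5 at 0.3 ng against 527.5, 906.8 and 1352.1 at 3 ng. Its 10 ng mean was 1068. Epha4, a receptor tyrosine kinase for ephrins that guides axons, read 29.4, 27.7 and 9.7 at 0.3 ng against 822, 833 and 738.5 at 3 ng. In both genes every 0.3 ng array lay under background, while the 3 ng arrays read 527.5 or more.

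Slc6a2, the noradrenaline transporter, gave 21.7, 19.4 and 24.6 at 0.3 ng and 288.7, 501.3 and 296.6 at 3 ng. Adgrl3, an adhesion G protein-coupled receptor of the latrophilin family, gave 3.3, 2.2 and 1.1 at 0.3 ng and 276.9, 480.9 and 474.9 at 3 ng. Pde5a, the cGMP-specific phosphodiesterase, gave 1.2, 27.2 and 14 at 0.3 ng and 639.2, 654.8 and 478.2 at 3 ng. Arrays of the 2 inputs could not overlap in these genes, since the rule put them on opposite sides of the background level. The other genes named by this rule were Htatsf1, a nuclear RNA-binding factor, Fam160a2, Apold1, Ccdc173 and Lrp2bp, a partner of the endocytic receptor megalin. Their 0.3 ng arrays ranged from 2.2 to 29.1 and their 3 ng arrays from 65.8 to 720.4. Several of them have more than 1 probe set: all 4 tested probe sets of Masp1 and all 3 of Adgrl3 had a lower mean log2 signal at 0.3 ng, but 1 of 2 did so for Epha4 and 1 of 2 for Lrp2bp.

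Replicate scatter extended to far brighter transcripts than loss did. The median standard deviation (SD) of log2 signal among 3 arrays was 0.70 at 0.3 ng, 0.32 at 3 ng and 0.25 at 10 ng, and the median of the ratios of the SDs, 0.3 over 3 ng, was 2.09. The SD was larger at 0.3 ng for 78.0% of probe sets. An SD over 1 was seen for 33.7% of probe sets at 0.3 ng and 8.93% at 3 ng. When limma's arrayWeights fitted 1 variance per input, the corresponding ratio of SDs was 2.06. Leaving out a replicate kept the median ratio between 1.55, without replicate 1 at 0.3 ng, and 2.66, without replicate 2 at 3 ng.

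The ratio followed signal in an arch. Above a 10 ng signal of 16384 the median SD was 0.08 at 0.3 ng and 0.11 at 3 ng, with a ratio of 0.765, and from 11585 to 16384 the ratio was 0.822. It was 1.31 from 8192 to 11585 and 1.89 from 5793 to 8192, so the inputs parted within this stretch of signal. The ratio stood at 2.07 from 4096 to 8192, 2.45 from 2048 to 4096 and 2.60 from 512 to 1024, its highest among the signal classes that span a factor of 2. Toward the floor it declined again, to 2.26 from 128 to 256 and 1.42 between background and 64. In that dimmest class the 3 ng arrays scattered as well, with a median SD of 0.61 against 0.92 at 0.3 ng. Ratios from arrayWeights within each class ran from 0.797 in the brightest to a highest value of 2.58 from 512 to 1024, close to the medians.

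**Figure D2:**
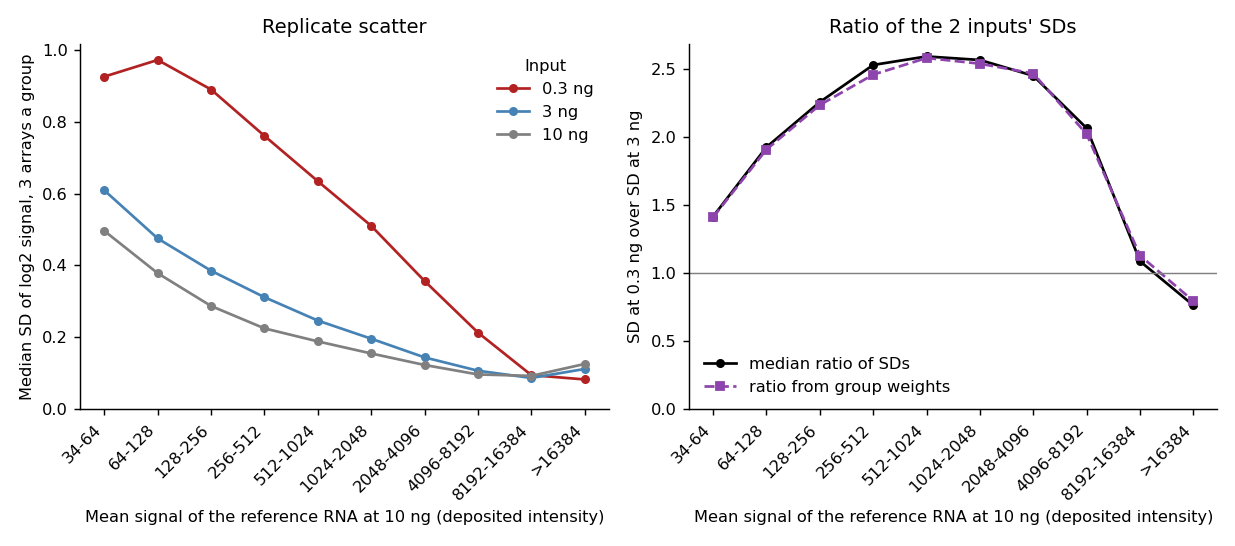
Left, the median SD of log2 signal among the 3 arrays of each input by mean signal at 10 ng; right, the ratio of SDs, 0.3 over 3 ng, as the median over probe sets and as estimated by group weights. The curves meet above 8192, and the ratio reaches 2.60 between 512 and 1024 before it declines to 1.42 at the lowest signals.

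Large departures of a single array followed the same order. An array was counted as dropping or jumping when it lay at least 4-fold from the mean of the other replicates of its group. Drops numbered 2473, 1429 and 1591 on replicates 1 to 3 at 0.3 ng and 567, 314 and 353 at 3 ng. Jumps numbered 1610, 1647 and 1934 at 0.3 ng and 250, 281 and 329 at 3 ng. Every array at 0.3 ng thus had more of both kinds than any at 3 ng (exact permutation test, two-sided, p = 0.1 for each). Among 4180 genes with a 10 ng signal over 1000, 362 had an SD over 1 at 0.3 ng and 3 at 3 ng. In 214 of the 362 the array farthest from the median of the 3 was low and in 148 it was high, and it was replicate 1 in 150, replicate 2 in 94 and replicate 3 in 118.

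The 8 genes with the largest SD among these bright genes show both forms. They were chosen for their scatter, and their values are given as a description. Gnb4, a beta subunit of heterotrimeric G proteins, had signals of 147.9, 7647.8 and 4412.9 at 0.3 ng and 3735.7, 3401.0 and 3485.6 at 3 ng. Its log2 SD was 3.06 at 0.3 ng and 0.07 at 3 ng, with replicate 1 low and the other replicates at or above the 3 ng level. Tspan8, a tetraspanin of the cell surface, gave 38.1, 1990.2 and 2357.5 at 0.3 ng and 1703.5, 2287.9 and 2333.9 at 3 ng. Bpgm, the enzyme that makes bisphosphoglycerate in red cells, gave 64.4, 3082.2 and 4116.5 at 0.3 ng and 1875.1, 2071.9 and 1045.5 at 3 ng. Replicate 1 was the low array in each of these.

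Map1lc3a, an LC3 protein of the autophagosome, showed the opposite form. It read 197.1, 240.2 and 10024.8 at 0.3 ng and 1440.6, 1107.2 and 1608.9 at 3 ng. Arfgap2, which activates the GTPase of the small GTPase Arf in Golgi traffic, read 212.1, 1316.1 and 14509.0 at 0.3 ng and 1460.3, 1474.1 and 954.6 at 3 ng. Replicate 3 stood above every 3 ng array in both, and replicate 1 stood below. Dppa2, a factor of pluripotent cells, read 31.2, 25.1 and 2342.5 at 0.3 ng and 602.3, 667.7 and 1838.9 at 3 ng, with 2 of its 3 low-input arrays under background. Cntn3, a neuronal contactin, read 2.5, 786.8 and 981.5 at 0.3 ng against 492.8, 1550.5 and 894.3 at 3 ng. Trim21, a cytosolic antibody receptor and ubiquitin ligase, read 19.0, 844.9 and 856.9 against 2194.6, 1726.3 and 2153.2. Replicate 1 lay under background in both, and in Trim21 the other replicates also lay below every 3 ng array. None of the 8 passed the test of a difference between inputs, with adjusted p from 0.26 to 0.92 in the moderated test described with the level changes. That test divides by the spread for which these genes were chosen, so its outcome cannot show whether their levels differed.

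Other bright genes scattered little at 0.3 ng. The 8 with the smallest log2 SD had values from 0.004 to 0.009 and 10 ng signals from 2711 to 11240. Dek, a chromatin protein, read 10637, 10604.4 and 10551.5 at 0.3 ng against 10538.9, 10036.2 and 9870.3 at 3 ng. Ppp2ca, the catalytic subunit of protein phosphatase 2A, read 2641.8, 2670 and 2655.2 against 2732.1, 3179 and 2756.9. Rasa2, which switches off Ras, read 9408.4, 9387.2 and 9443.4 against 8672.6, 8246.6 and 8193.6. The others were Qtrt2, Atp5h, Nucks1, Ric1 and 1110038B12Rik. Being the extremes of 4180 genes, such small values from 3 arrays do not show that these transcripts are measured more precisely than others of the same signal. The median SD at 0.3 ng in the signal classes that hold the 8 was 0.36 from 2048 to 4096, 0.21 from 4096 to 8192 and 0.10 from 8192 to 16384.

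**Figure D3:**
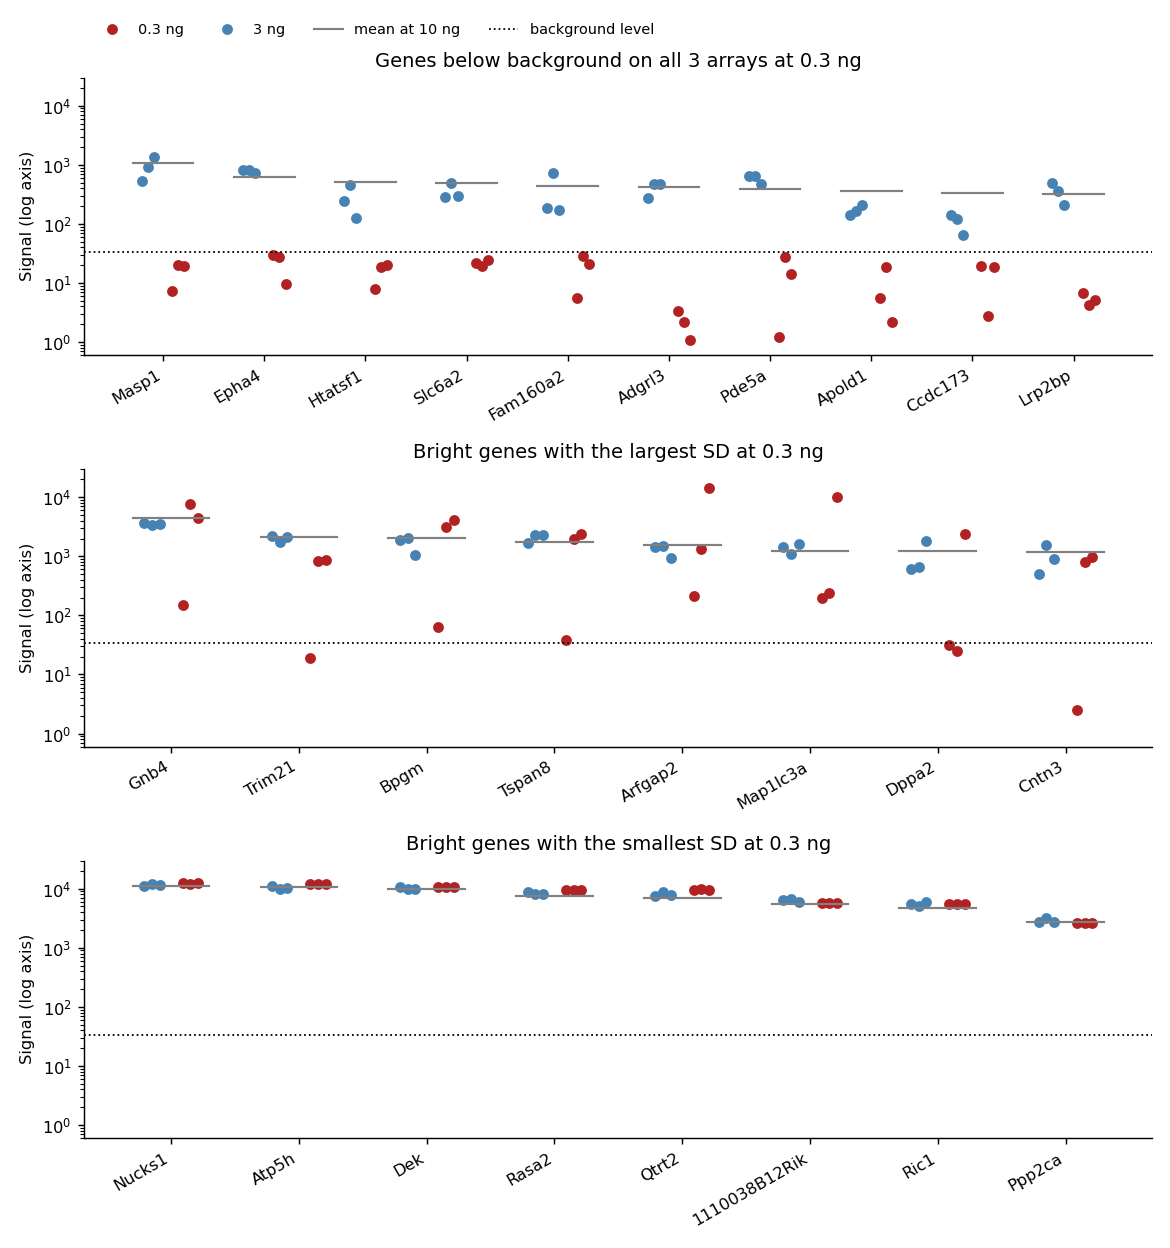
Signals on each of the 3 arrays at 0.3 ng (red) and 3 ng (blue) on a log axis, with the 10 ng mean as a bar and the background level dotted, for genes lost at 0.3 ng (top), bright genes with the largest SD at 0.3 ng (middle) and the smallest (bottom). Lost genes lie under 33.7 on every 0.3 ng array, whereas Gnb4 and Tspan8 have 1 array far below the others and Map1lc3a and Arfgap2 have 1 far above.

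Departures of an array correlated weakly between probe sets of the same gene. Among 1377 pairs of probe sets that name the same gene, have no suffix letter and had signals over 256 at 10 ng, the correlation across pairs of their deviations from the group mean was 0.053 at 0.3 ng and 0.048 at 3 ng. Over 423 pairs with signals over 1024 it was 0.10 and 0.11. The pairs share the array and its labelling, so these values describe the arrays and carry no test. The brighter member of such a pair dropped at least 4-fold on a 0.3 ng array 91 times. Its partner was at least 2-fold down on the same array in 25.3% of these, against 16.1% over all pairs and arrays. The partner was down by any amount in 47.3% of the 91, so it did not generally move the same way. Among the pairs over 1024 such drops numbered 10, and the partner was at least 2-fold down in 5 of them (50%), against 8.51% over all those pairs and arrays. The mean log2 fold changes of the 2 probe sets had the same sign in 811 of the 1377 pairs (58.9%).

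Average levels at 0.3 ng were lower for dim transcripts and higher for bright ones on the deposited scale. Fold changes are differences of mean log2 (signal + 3.9), 0.3 minus 3 ng. This scale shrinks the signal ratios of very dim transcripts and still depends on readings under background. The median over all tested probe sets was -0.25. By signal at 10 ng the median was -0.41 between background and 64, -0.54 from 64 to 128, -0.30 from 256 to 512, -0.13 from 1024 to 2048, 0.04 from 4096 to 8192, 0.23 from 8192 to 16384 and 0.36 above that. A mean at least 2-fold lower at 0.3 ng was found for 32.6% of probe sets from 64 to 128, 8.25% from 1024 to 2048 and 0.525% from 4096 to 8192.

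Where the zero of this scale lies depended on the scaling. Centring and the hybridization controls shift the log2 fold changes of all classes by the same amount, so neither could change their order, whereas quantile normalization could and removed the rise with signal. Centring each array on its median raised the overall median by 0.53, to 0.28, and left the class from 64 to 128 at -0.01 and the brightest at 0.89. Setting the arrays to their 18 hybridization controls, bacterial and phage transcripts, lowered it by 0.38, to -0.63, with the same classes at -0.92 and -0.01. All 18 of these controls were higher at 0.3 ng, by 0.38 on average (exact permutation test over arrays, two-sided, p = 0.1). Quantile normalization, which makes the distributions of the 6 arrays equal, gave a median of -0.06 and class medians between -0.13 and 0.05.

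**Figure D4:**
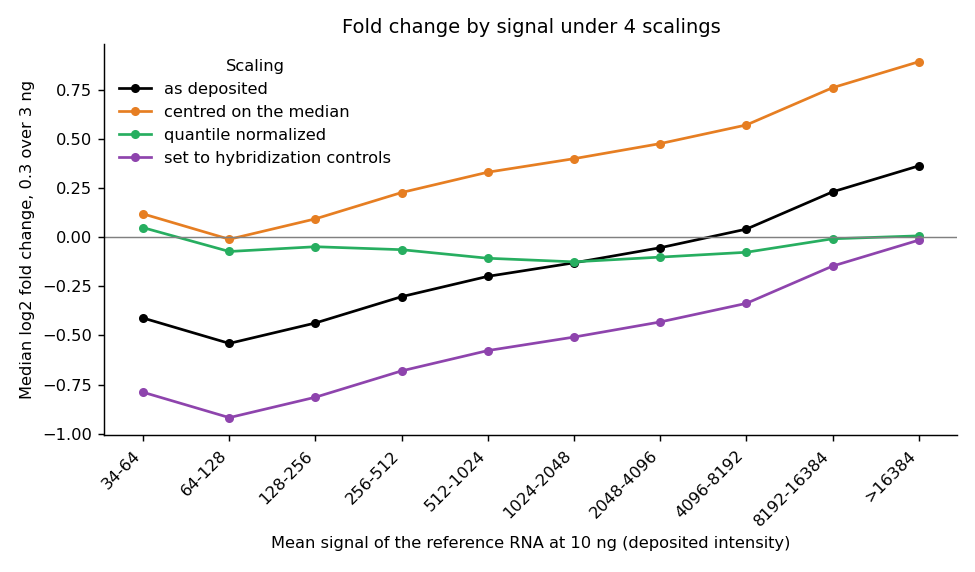
Median log2 fold change, 0.3 over 3 ng, by mean signal at 10 ng with the arrays as deposited, centred on their medians, quantile normalized, or set to the hybridization controls. From the class of 64 to 128 upward the deposited values climb with signal, from -0.54 to 0.36; the centred and hybridization-control curves are the same curve shifted by 0.53 and -0.38; the quantile curve stays between -0.13 and 0.05.

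Single transcripts were tested with a model that gave each input its own variance. The variances of each probe set were moderated within each group along a trend in 10 ng signal, and limma's lmFit and squeezeVar supplied a moderated test with unequal variances. The median moderated SD was 0.83 at 0.3 ng and 0.41 at 3 ng. At an adjusted p (Benjamini-Hochberg over 28783 probe sets) under 0.05, 312 probe sets were lower at 0.3 ng (1.08%) and 133 were higher (0.462%). Unadjusted p under 0.05 was reached by 3371 and 1045. Over genes, 106 of 12971 were called lower (0.817%) and 56 higher (0.432%). In every one of these calls the arrays of the 2 inputs were separate, a condition met by 15.6% of all tested probe sets in the lower direction and 6.35% in the higher.

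The 2 directions concerned different transcripts. Probe sets called lower had a median 10 ng signal of 136 and a median log2 fold change of -3.52, and 284 of the 312 had signals under 1024. Of the 312, 214 were below background on all 3 arrays at 0.3 ng. Probe sets called higher had a median 10 ng signal of 15517 and a median log2 fold change of 0.39, and 125 of the 133 had signals over 4096. Their median SD was 0.086 at 0.3 ng and 0.116 at 3 ng, while for those called lower it was 0.58 and 0.60.

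The number of calls rested on the spread model and on single arrays. With 1 variance for both inputs limma called 55 lower and 3 higher, with 1 ratio of variances for all probe sets 58 and 1, with a weight per array 84 and 2, and without the trend in signal 175 and 5. All 55 and all 58 lower calls of the first 2 models were among the 312. Leaving out a 0.3 ng array removed most calls. Without replicate 1 there were 32 lower and 4 higher calls, of which 24 and 3 were among the 312 and 133. Without replicate 2 limma made 0 and 0 calls (2545 and 815 at unadjusted p under 0.05). Without replicate 3 there were 2 lower calls, 0 of them among the 312, and 0 higher (893 at unadjusted p under 0.05). Without replicate 2 or 3 at 3 ng there were 267 and 239 lower and 56 and 11 higher calls. The higher calls were tied to the scaling, since 1581 were made after centring, 4 after quantile normalization and 6 relative to the hybridization controls, against 337, 92 and 1141 lower calls.

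The 10 genes with the largest decrease had mean signals of 205 to 929 at 3 ng and of 1.73 to 24.8 at 0.3 ng, all under the background level. Adgrl3 and Masp1, described above, had log2 fold changes of -6.06 ± 0.457 (SE) and -5.55 ± 0.431 (SE), with adjusted p of 0.0053 and 0.0027. Because every 0.3 ng array lay under background, the level of these genes is a bound: the geometric mean at 3 ng was at least 11.8-fold above the background level for Adgrl3, 25.7-fold for Masp1, 23.7-fold for Epha4 and 17.4-fold for Pde5a. Satb1, a chromatin organizer of T cells, read 11.5, 4.2 and 58.8 at 0.3 ng and 638.8, 736.3 and 399.1 at 3 ng, with a log2 fold change of -4.86 ± 0.642 (SE) and an adjusted p of 0.025. It was the only gene of the 10 with a 0.3 ng array above background.

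Pik3cg, the catalytic gamma subunit of phosphoinositide 3-kinase in leukocytes, read 23.9, 1.4 and 33.4 at 0.3 ng and 438.7, 730.6 and 466.1 at 3 ng, at least 15.8-fold. Sntb1, a syntrophin of the dystrophin complex, read 13.9, 0.8 and 1.3 against 427.8, 89.2 and 399.2, at least 7.37-fold. Tbx20, a T-box factor of the heart, read 1.4, 1.7 and 2.1 against 932, 127.8 and 101.7, at least 6.82-fold, with 1 of its 3 ng arrays far above the others. Tusc1 and Lrp2bp were at least 5.67-fold and 9.99-fold lower. Of these 10 genes, Tbx20 and Sntb1 were not called with 1 variance for both inputs (adjusted p = 0.061 for each), nor were Pik3cg (0.061) and Satb1 (0.060).

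Among 8 settings, namely the 5 spread models and the 3 other scalings, 33 probe sets and 13 genes were called lower in all and 0 were called higher in all. The 13 were singled out after their values were seen. They are Adgrl3, Ccdc62, Epha4, Gpm6a, Gtdc1, Kcna4, Lrp2bp, Masp1, Mmp23, Pcdhb21, Slc6a2, Tusc1 and Zc3h8. Gpm6a, a membrane glycoprotein of neurons, read 24.3, 67.5 and 15.7 at 0.3 ng and 1212.3, 845 and 779.6 at 3 ng, and both of its tested probe sets were called. Kcna4, a voltage-gated potassium channel, read 53.9, 22 and 32.6 against 948.1, 486.6 and 532.2. Pcdhb21, a clustered protocadherin, stayed above background at 59.7, 57.2 and 54.8 against 440.7, 607.5 and 690, a log2 fold change of -3.23 ± 0.434 (SE) with an adjusted p of 0.022. Zc3h8, a zinc finger protein, read 42.5, 27.8 and 67 against 537.8, 491.7 and 467.5. In all 13 the 2 inputs were separate, and the 10 ng means lay between 126 and 1068.

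Of the 10 genes with the largest increase, 3 changed more than 2-fold and 7 less. Oaf read 683.1, 3769 and 540 at 0.3 ng and 67.6, 32.6 and 132.5 at 3 ng, and its 10 ng mean was 97.9, close to the 3 ng level. Its log2 fold change was 3.98 ± 0.788 (SE), with an adjusted p of 0.045. Nbeal2, a BEACH-domain protein needed for platelet granules, read 103.4, 107.3 and 68.4 at 0.3 ng and lay under background on all 3 arrays at 3 ng, so that it was at least 2.71-fold higher. Its 10 ng mean was 53.2. H2aj, a histone H2A variant, read 9768.7, 8375.5 and 5652.3 against 1811, 1863.2 and 2307.6, with a log2 fold change of 1.96 ± 0.234 (SE) and an adjusted p of 0.019. It was called under every scaling and under each spread model except the one without the trend in signal (adjusted p = 0.096), though only 1 of its 2 probe sets was higher.

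The remaining 7 genes were brighter at 10 ng, with mean signals of 5719 to 15903. Mt2, a metallothionein that binds zinc and copper, read 12602.4, 11958.4 and 13321.7 at 0.3 ng against 8559, 7148.9 and 7997.1 at 3 ng, a log2 fold change of 0.68 ± 0.127 (SE) with an adjusted p of 0.033. Rps18, of the small ribosomal subunit, read 20646.8, 19810 and 18127.8 against 15061.8, 12966.6 and 13077.4, a log2 fold change of 0.51 ± 0.079 (SE) with an adjusted p of 0.019. Log2 fold changes of Nufip2, Erdr1, Atp5e, a subunit of ATP synthase, Lamp1, a lysosomal membrane protein, and Rplp2, a ribosomal stalk protein, ran from 0.47 to 0.55. Separate inputs were a condition for naming the 7. After quantile normalization or relative to the hybridization controls none of these 7 was called, with adjusted p from 0.11 to 0.50. Of the 133 probe sets called higher, 48 have the name suffix x, which marks probes shared with other sequences and which 1804 of the 28783 tested probe sets have. Values of ribosomal proteins with near-identical copies are therefore uncertain.

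Groups of genes were described by lists of pathways and cell types, each beside the counts over all 12971 tested genes: 106 called lower, 56 called higher, a median log2 fold change of -0.19, median SDs of 0.61 at 0.3 ng and 0.27 at 3 ng, and 28.2% with an SD over 1 at 0.3 ng. Of these genes 8079 (62.3%) had a lower mean log2 signal at 0.3 ng, and 2115 (16.3%) were at least 2-fold lower. No list was tested as a set. The cytosolic ribosomal proteins, the most abundant group, had 18 of 43 tested members called higher and 0 lower, with a median log2 fold change of 0.34. The members of this list had a median of 0.03 after quantile normalization, -0.04 relative to the hybridization controls and 0.87 after centring, and its higher calls numbered 0, 0 and 37. With 1 variance for both inputs, or 1 ratio of variances, 0 of the 43 were called. On the deposited scale the median lay 0.10 above that of genes in the same signal classes. Rpl22 read 23833, 21243.4 and 21173.7 at 0.3 ng against 17714.3, 14913.8 and 16794.1 at 3 ng. Scatter was not larger at low input here: the median SD was 0.098 at 0.3 ng and 0.127 at 3 ng, and 1 of the 43 had an SD over 1.

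Small abundant proteins, the cytoskeleton and energy metabolism also had higher calls and 0 lower calls on the deposited scale, in smaller shares. Median 10 ng signals were 8775 for small abundant proteins, 6938 for the cytoskeleton, 5777 for oxidative phosphorylation and 2865 for glycolysis. The list of small abundant proteins had 5 of 33 members called higher and 0 lower, among them Lgals1, a galectin, with signals of 28193.1, 26710.3 and 26882.3 at 0.3 ng and 21840.9, 19031.2 and 21683.3 at 3 ng. Actin and tubulin genes had 3 of 35 called higher and 0 lower: Cfl1, which severs actin filaments, Myh9, a non-muscle myosin, and Actb. Log2 fold changes of the 3 were 0.45, 0.40 and 0.36. A lower mean log2 signal at 0.3 ng was found for 3 of the 5 tested probe sets of Myh9, 0 of 2 of Cfl1 and 0 of 2 of Actb. Oxidative phosphorylation had 2 of 70 called higher, Atp5e and Cox7a2 of cytochrome oxidase, and glycolysis had 1 of 17, the glucose transporter Slc2a1. The median SD was 0.090 at 0.3 ng and 0.112 at 3 ng for small abundant proteins, 0.131 and 0.099 for the cytoskeleton, 0.184 and 0.136 for oxidative phosphorylation and 0.214 and 0.107 for glycolysis. After centring 24, 20, 41 and 8 members of these 4 lists were called higher, in the same order. Higher calls numbered 0 after quantile normalization, with 1 variance or with 1 ratio of variances. Relative to the hybridization controls 0 were called higher, while 1 small abundant protein and 2 cytoskeletal genes were called lower, and Slc2a1 and Actb lay slightly below 0.

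Translation factors, chaperones, splicing factors and DNA replication each had 1 member called higher and 0 lower: Eif5a, the mitochondrial chaperonin Hspe1, Snrpg of the Sm core and Rrm2, a subunit of ribonucleotide reductase. Eif5a read 17558.6, 16500.6 and 17184.1 at 0.3 ng against 13891.1, 13119.4 and 12989.5 at 3 ng. On the scale of the hybridization controls these 4 lists had 4, 3, 2 and 1 members called lower and 0 higher, and Eif5a and Rrm2 lay slightly below 0. After centring 14, 9, 13 and 3 members were called higher, and after quantile normalization 0 in either direction. Genes used as references for normalization, which overlap these lists, had 2 of 15 called higher, Actb and Rpl13a, with a median SD of 0.099 at 0.3 ng and 0.111 at 3 ng. Proteasome subunits had 0 of 39 called in either direction and a median log2 fold change of -0.02 on the deposited scale, where Psmb6 read 8605.9, 8388 and 7896.4 against 6701.3, 5844.8 and 7095.7 and Psmb7 5441.3, 5666.2 and 6718.2 against 7113.2, 6798.9 and 6935.6. On that scale these 2 subunits of the same catalytic core lay on opposite sides of 0, without overlap of the inputs and without passing the test (adjusted p = 0.15 and 0.40). After centring both lay above 0 (0.88 and 0.30), with 8 subunits called higher. Relative to the hybridization controls both lay below it (-0.03 and -0.61), with 2 subunits called lower, 1 of them Psmb7 (adjusted p = 0.032).

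Regulators of transcription and chromatin had no calls on the deposited scale. Relative to the hybridization controls 2 members of the Mediator list and 6 chromatin regulators were called lower, and after centring 5 and 7 were called higher. Mediator subunits and general transcription factors, which bridge activators to RNA polymerase II, had 0 of 55 called (5 lower and 3 higher at unadjusted p under 0.05 in the limma-based test), a median SD of 0.50 at 0.3 ng against 0.24 at 3 ng, and 13 of 55 with an SD over 1 (23.6%) against the 28.2% of all genes. Taf7 of the TFIID complex read 10.9, 2535.9 and 1119.8 at 0.3 ng and 542, 600.9 and 1803 at 3 ng. Gtf2f1, of the TFIIF complex, read 408.9, 213.1 and 4433.9 against 560.9, 330.2 and 551.1, and Med18 read 878.3, 85.2 and 20 against 626.8, 345.7 and 818.1. These 3 were picked after their values were seen. In contrast Med1, the brightest subunit, read 7484.8, 6198.9 and 5990.9 against 6274.2, 6262.7 and 7060.7. Chromatin regulators had 4 of 60 members with an SD over 1, mitosis and spindle genes 3 of 47, DNA replication 7 of 47, and genes of giant proteins 6 of 51. Each had 0 called lower on the deposited scale. At unadjusted p under 0.05 in the limma-based test, 4, 3, 7 and 1 of them were lower and 4, 1, 2 and 5 higher. Over all 28783 tested probe sets these counts were 3371 lower and 1045 higher. Several lists of intermediate signal had 0 calls in either direction: aminoacyl-tRNA synthetases with 4 of 33 members over an SD of 1, collagens and matrix with 1 of 42, and cholesterol synthesis with 0 of 21, of which 0, 2 and 0 were lower and 0, 3 and 3 higher at unadjusted p under 0.05. After centring each array on its median, 1, 10 and 2 of them were called higher. Only 6 of 54 histone genes had a tested probe set of their own, and 3 of the 6 had an SD over 1.

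Developmental and cell type genes were mostly dim in the pool. Hox genes, which set position along the body axis, had 0 of 28 tested members called on the deposited scale (4 lower and 1 higher at unadjusted p under 0.05) and a median log2 fold change of -0.42. After centring 1 was called higher and the median was 0.11. Of 23 Hox genes present on all 3 arrays at 10 ng, 8 were below background on 1 or more arrays at 0.3 ng and 2 at 3 ng, beside 16.4% and 5.48% over all genes. The list was dim, with a median 10 ng signal of 118. In the class from 64 to 128 the same shares were 55.0% and 15.9% of all probe sets, and from 128 to 256 they were 26.1% and 1.97%. An SD over 1 at 0.3 ng was seen for 13 of the 28, and 5 of the 28 were at least 2-fold lower. From 64 to 128 these shares were 48.8% and 32.6% of all probe sets. Hoxa9 read 4.1, 245.5 and 49.7 at 0.3 ng and 200, 361.9 and 480.7 at 3 ng, and Hoxa11 read 10.3, 15 and 42.3 against 55.7, 102.1 and 116.1. The brightest, Hoxa10, overlapped between inputs, with 3046.9, 3276.3 and 2286.9 against 2539.8, 3164 and 3397.3. Chemokines and cytokines had 0 of 31 called on the deposited scale and 3 called higher after centring. Of 28 present genes of this list, 7 were below background on 1 or more arrays at 0.3 ng and 3 at 3 ng. Their brightest members, Cxcl12 and Ccl3, were above 4700 on every array.

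Marker lists of cell types ranged from bright to absent in the pool. Fibroblast markers had 15 of 15 members tested, 0 of 13 present ones lost on any array, and 1 called higher, S100a4. The T lymphocyte marker Cd3e, a chain of the T cell receptor complex, read 12684.5, 12633.9 and 11635.2 at 0.3 ng and 11114.2, 9803.9 and 10962 at 3 ng, and the B lymphocyte coactivator Pou2af1 read 6052.7, 6597.9 and 5289.5 against 5310.9, 5249.9 and 4908. Ebf1, a B cell factor, had replicate 1 at 840.1 and the others at 4390.6 and 4438.6, against 3842.7 to 4857.6 at 3 ng. Macrophage markers had 6 of 18 tested members with an SD over 1 at 0.3 ng and 1 at 3 ng, although Ctss, a lysosomal cathepsin, read 3660.8, 3633.6 and 3511.1 against 3529, 3634.5 and 3787.1. Kidney tubule, hepatocyte and gonadal markers had 5, 6 and 7 tested members, since most of their genes were under background at 10 ng, with 0 called on the deposited scale. Relative to the hybridization controls 2 gonadal markers were called lower. Epithelial markers had 8 of 16 tested members with an SD over 1 at 0.3 ng and embryonic stem markers 5 of 8, also with 0 called on the deposited scale. After centring 6 fibroblast, 2 macrophage, 1 T lymphocyte, 1 B lymphocyte and 1 epithelial markers were called higher.

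Myoblast and neuron markers held the remaining calls among the marker lists on the deposited scale. Pax3, a paired-box factor of muscle precursors and neural crest, was called lower, at 483.1, 331.8 and 384 against 1591.5, 1818.3 and 1043.1, with a log2 fold change of -1.86 ± 0.323 (SE) and an adjusted p of 0.030. It was not called with 1 variance for both inputs (adjusted p = 0.066) or after quantile normalization (0.052). Myf5, another factor of muscle precursors, overlapped between inputs, at 944.6, 776 and 573.4 against 943.1, 1425.4 and 1289.7. Of 14 present myoblast markers 8 were below background on 1 or more arrays at 0.3 ng and 5 at 3 ng. Ncam1, a neural adhesion molecule, was called higher with a log2 fold change of 0.31 ± 0.070 (SE) and an adjusted p of 0.049, but lay at -0.01 after quantile normalization and -0.07 on the scale of the hybridization controls. The median of the 9 tested neuron markers was -1.35 on the deposited scale and -0.82 after centring, 8 of the 9 had a lower mean log2 signal, and 3 of the 8 present were under background on all 3 arrays at 0.3 ng. These were Map2, a microtubule protein of dendrites, Tubb3, a neuronal tubulin that was also under background on all 3 arrays at 3 ng, and Gria2, a glutamate receptor subunit. Gria2 read 33.1, 25 and 21.6 against 97.5, 198.7 and 131.2 (adjusted p = 0.077).

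**Figure D5:**
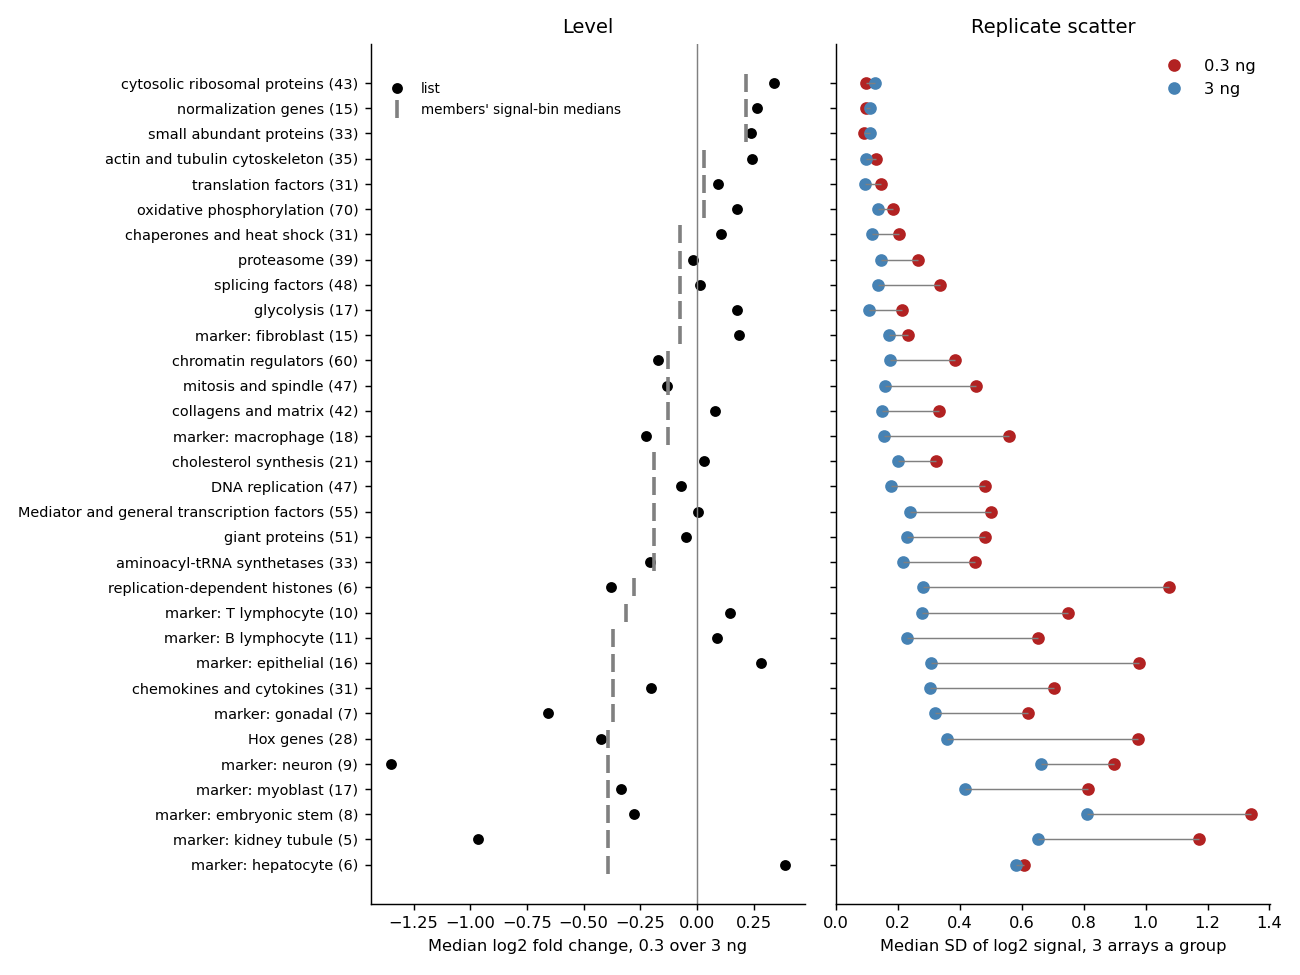
For each list, with the number of tested genes in brackets and the lists ordered by median signal at 10 ng, the left panel gives the median log2 fold change on the deposited scale (dots) beside the median over members of the medians of their signal classes (bars), and the right panel the median SD of log2 signal at 0.3 and 3 ng. Ribosomal proteins lie at 0.34 as deposited, 0.03 after quantile normalization and -0.04 against hybridization controls, with SDs of 0.098 and 0.127; Hox genes lie at -0.42 as deposited and 0.11 after centring, with SDs of 0.98 and 0.36.

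Control probe sets at the 3′ and 5′ ends of a messenger RNA report how far copying reached, where it starts at the poly(A) tail. For Actb the log2 ratio of 3′ to 5′ signal was 1.95 ± 0.034 (SD, n = 3) at 0.3 ng and 1.89 ± 0.087 (SD, n = 3) at 3 ng, which did not separate the inputs (exact permutation test, two-sided, p = 0.4). For Gapdh it was 0.21 ± 0.037 (SD, n = 3) and 0.16 ± 0.032 (SD, n = 3) in the same test (exact permutation p = 0.2). The ratio for Pcx, a mitochondrial carboxylase of low signal, was -0.45 ± 0.60 (SD, n = 3) and 0.64 ± 0.34 (SD, n = 3), with the inputs apart (exact permutation p = 0.1). Its 3′ probe set read 37.4, 64.2 and 61.1 at 0.3 ng, near the background level. For 18S rRNA, a ribosomal RNA to which that reading does not apply, the ratio was -2.33 ± 0.12 (SD, n = 3) and -1.81 ± 0.094 (SD, n = 3). Here too the inputs were apart (exact permutation p = 0.1). The median of these 4 ratios on each array, averaged by input, differed by -0.52 (0.3 minus 3 ng, exact permutation p = 0.1). The single controls did not share a direction. They differed by 0.06 for Actb, 0.06 for Gapdh, -1.09 for Pcx and -0.52 for 18S rRNA. The 5′ probe set of Tfrc, the transferrin receptor, lay below background on some arrays of each input, so its ratio was not compared. At the 3′ end Tfrc itself read 824.4, 139.9 and 153.7 at 0.3 ng against 491.6, 579.1 and 367.1 at 3 ng.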

How the data were processed

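Values are the intensities deposited by the authors, 1 per probe set and array; that they are linear and scaled to a 2% trimmed mean of 500 was found from the values. The software, probe summary, background correction, amplification and labelling were not stated in any label or header read here. Arrays have no sequencing depth; precision is limited by 3 arrays a group. Groups came from the titles.

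From these, log2 (intensity + 3.9) was computed, 3.9 being the 10th percentile of positive values. Of 45101 probe sets, 64 controls were left out. A probe set was tested when its mean at 10 ng exceeded the 95th percentile of 27 Bacillus controls over all arrays (33.7). Means and variances came from limma 3.58.1 in R 4.3.3 (lmFit within each group, squeezeVar with a trend in 10 ng signal), then a two-sided moderated test with unequal variances and Satterthwaite degrees of freedom, adjusted by Benjamini-Hochberg. The fits were run on simulated data with normal scatter around a smooth trend in signal. That setting is simpler than these arrays, so the run does not vouch for the number of calls. Alternatives were other spread models, pseudocounts, filters, scalings, a replicate block and leaving out each array. The hybridization-control scaling was added after seeing the data.

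Probe sets with 1 gene symbol numbered 34945, with several 932 and with none 9160. Each gene is represented by 1 probe set, the brightest at 10 ng among those that carry its symbol and no other (18193 genes, 12971 tested). Symbols come from the platform's probe table; 34741 were looked up by gene ID in the RefSeq table of GRCm38.p6 and 0 changed. "At least" folds divide the brighter group's geometric mean by the background level. Named were the 10 genes with the largest change each way among called genes with separate arrays, the 10 brightest lost and the 5 brightest gained genes (4 existed), the 8 with the largest and smallest SD over a signal of 1000, and per list up to 3 called and the 2 brightest members; other members are said to be picked after seeing values or illustrate a count. The comparison, lists and rules were chosen with earlier results of these data known. Protein length was not used here. Replicate numbers did not pair arrays: same-numbered deviations correlated between -0.002 and 0.006.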

Additional observations from a re-analysis of the deposited data

How the results depend on the processing

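Against 312 lower and 133 higher probe sets, calls numbered 124 and 10 with no filter on low signals, 337 and 1581 after centring, 92 and 4 after quantile normalization, 1141 and 6 relative to the hybridization controls (chosen after seeing the data), 55 and 3 with 1 variance, 58 and 1 with 1 ratio of variances, 84 and 2 with a weight per array, 175 and 5 without the trend, and 209 and 236 with the filter at 4 times background. With fewer arrays they ranged from 0 to 386 and from 0 to 129. The share of higher calls was 29.9% as deposited, 82.4% centred, 4.17% after quantile normalization and 0.523% with hybridization controls. The replicate block in lmFit and eBayes gave 1 lower and 0 higher (2976 and 996 at unadjusted p under 0.05); the arrays share only a number. The median log2 fold change of -0.25 became -0.14 with a pseudocount of 64, -0.16 with the filter at 4 times background, 0.28 centred, -0.0594 after quantile normalization and -0.63 with hybridization controls. The median SD ratio of 2.09 became 1.88 with a pseudocount of 64, 1.66 with no filter, 2.37 with the filter at 4 times background and 1.95 after quantile normalization, and ranged from 1.55 to 2.66 without single arrays. The percentage below background on all arrays at 0.3 ng, 2.95%, was 1.32% with background at the median of the Bacillus controls, 3.37% at their maximum, 1.98% centred, 2.10% after quantile normalization, 3.88% with hybridization controls, and 4.89% to 5.74% over 2 arrays, where fewer arrays must be low. Of 43 named genes called or lost, 33 never changed sign. Signs turned with hybridization controls for Rpl37a (-0.0027), Rpl38 (-0.0382), Eif5a (-0.0205), Slc2a1 (-0.0226), Rrm2 (-0.0371), Actb (-0.0209), S100a6 (-0.0007), Rpl13a (-0.0411), S100a4 (-0.0344) and Ncam1 (-0.0674), and after quantile normalization for Rpl38 (-0.0162), Rpl13a (-0.0088) and Ncam1 (-0.0105). Over the settings, results for these genes kept direction and call 392 times, lost the call 407 times, gained it 2 times and changed sign 13 times. Causes were not tested. Limits: 3 arrays a group, origin of the replicates and batches unknown, a floor that makes the changes of lost genes bounds, and a scaling that sets where 0 lies.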

Other observations

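A few transcripts appeared only at the lowest input. Of 8346 probe sets below background on all 3 arrays at 3 ng and on all 3 at 10 ng, 28 were above it on all 3 arrays at 0.3 ng (0.335%), and 4 of 2648 such genes were. The clearest was 2610316D01Rik, with 89.2, 356.2 and 100.5 at 0.3 ng against 11, 20.1 and 20.6 at 3 ng, at least 4.38-fold. The others, Adig, a small adipocyte protein, 2410137M14Rik and 4931439C15Rik, reached at most 52.6 on any 0.3 ng array, close to the background level. They were chosen for this pattern, were not in the tested set, and their values are a description.

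High readings at 0.3 ng, most marked on 1 array, also reached developmental genes that were dim at higher input, picked here after their values were seen. Hoxb13, expressed in the tail region and prostate, read 153, 6896.5 and 598.3 at 0.3 ng against 70.9, 28.6 and 39.9 at 3 ng (adjusted p = 0.13). Hoxd10, a limb Hox gene, read 9.8, 16.7 and 1707.8 against 82.9, 99.3 and 208.9, and Lin28a, an RNA-binding factor of stem cells, read 23.3, 409.8 and 29.4 against 11.9, 39.4 and 18.7. Each had 1 array far above the others, and it was replicate 2 in Hoxb13 and Lin28a and replicate 3 in Hoxd10. In Hoxb13 the other 0.3 ng arrays also lay above every 3 ng array, so its difference was not confined to 1 array.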
